A study of Mus musculus with 8 samples.

Results

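The antigen receptor loci are the stretches of the genome in which developing lymphocytes cut and rejoin variable (V), diversity (D) and joining (J) segments to build antibodies and T cell receptors. The 5 mouse loci described here are Igh (immunoglobulin heavy chain, chromosome 12), Igk (kappa light chain, chromosome 6), Igl (lambda light chain, chromosome 16), Tcra/Tcrd (T cell receptor alpha and delta, chromosome 14) and Tcrb (T cell receptor beta, chromosome 6). Windows of a replication timing table were taken as members when their position fell inside 1 of these loci. That gave 840 of 316864 windows (0.265%), with 204 in Igh, 330 in Igk, 47 in Igl, 194 in Tcra/Tcrd and 65 in Tcrb. The choice used position alone and no timing value.

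V(D)J recombination is carried out by the RAG1 and RAG2 proteins in lymphocyte precursors and is absent from embryonic stem cells, in which all 5 loci keep their germline arrangement. CTCF is a DNA-binding protein that, with cohesin, anchors chromatin loops. In B and T cell precursors CTCF sites within these loci help to bring distant V segments near the recombining D and J segments. Replication timing, the order in which parts of the genome are copied during S phase, follows large domains. Transcriptionally active regions tend to replicate early, and receptor loci are known to change their timing between cell types.

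The cells were mouse embryonic stem cells of the E14Tg2a line (male, 129/Ola background) whose CTCF protein is fused to an auxin-inducible degron, a tag that leads to its destruction when auxin is present. The auxin group received indole-3-acetic acid at 500 μM for 2 days and the control group received none, so both groups carry the tag. Neither the number of clones nor the remaining CTCF protein was given in the sources used here. Cells were labelled with BrdU for 2 hours and 40k cells each of early and late S phase were sorted, and each early and late pair of libraries gave 1 profile, with 2 profiles per group. The labels do not say whether replicates were separate cultures, so the spread between them may be technical. No expression or genotype data were analysed here, and the stem cell identity could not be checked against markers.

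Each profile holds a timing score every 6 kb, and a higher score is earlier. The exact score formula and log base were not given in the sources used here. The authors quantile normalised the table, so the 4 profiles have identical score distributions, and a difference at a locus is relative to the rest of the genome. Scores ran from -10.5 to 23.3 with an SD of 2.10. A mean control score above 0.5 is called early here and one below -0.5 late. By that rule 41.5% of all windows were early and 45.6% late in control cells. The read depth behind each window is unknown. The score is smoothed along the chromosome, with a correlation of 0.981 between adjacent windows in the difference of the 2 control profiles (642 adjacent pairs within the loci), so neighbouring windows are not independent.

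Receptor loci are repetitive, and windows were missing more often there than elsewhere. Of the 6 kb positions in the loci 56.0% had a score, against 74.0% of those in the genome. The share was 43.7% at Igh, 59.9% at Igk, 94.0% at Igl, 63.0% at Tcra/Tcrd and 52.0% at Tcrb. The longest gap was 306 kb at Igh and 216 kb at Tcra/Tcrd. The reference mm10 comes from another strain, C57BL/6J, and what strain differences in V segment content did to the scores was not tested.

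Sequences for the loci were limited to promoters of annotated genes, since no V, D or J segment sequence was at hand. The promoters shown are those of the recombinase genes, of a gene in each of Igk and Igl that lies in a stretch described below, and of the gene whose promoter holds a CTCF-like motif. They cover 250 bases before and 50 after the gene start (RefSeq, GRCm38.p6, which shares coordinates with mm10), are written 5′ to 3′ on the strand of the gene, and were chosen after the scores were seen. Rag2 (chr2:101624462-101624761, plus strand) and Rag1 (chr2:101649483-101649782, minus strand) encode the recombinase. LOC108169192 (chr6:68880650-68880949, minus strand) lies in the Igk bin with the largest decrease in score, and Gm35545 (chr16:19218252-19218551, plus strand) lies between Iglc2 and Iglv3 of Igl. Gm38573 (chr6:67721387-67721686, minus strand) lies in the V region of Igk. The motif searched on both strands was a CTCF-like core, CC then any 3 bases, AG, any 2 bases and GGC, with matches in capitals.
Rag2: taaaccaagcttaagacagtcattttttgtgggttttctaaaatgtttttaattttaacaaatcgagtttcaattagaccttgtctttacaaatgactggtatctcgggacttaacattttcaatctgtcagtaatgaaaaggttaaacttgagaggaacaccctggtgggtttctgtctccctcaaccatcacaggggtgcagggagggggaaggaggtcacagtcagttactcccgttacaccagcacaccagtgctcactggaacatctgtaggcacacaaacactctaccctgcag
Rag1: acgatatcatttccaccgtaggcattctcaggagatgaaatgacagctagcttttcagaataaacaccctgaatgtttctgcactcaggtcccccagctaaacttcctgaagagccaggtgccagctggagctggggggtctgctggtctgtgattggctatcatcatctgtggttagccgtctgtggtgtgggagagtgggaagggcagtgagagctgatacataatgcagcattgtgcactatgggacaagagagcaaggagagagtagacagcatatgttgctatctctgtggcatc
LOC108169192: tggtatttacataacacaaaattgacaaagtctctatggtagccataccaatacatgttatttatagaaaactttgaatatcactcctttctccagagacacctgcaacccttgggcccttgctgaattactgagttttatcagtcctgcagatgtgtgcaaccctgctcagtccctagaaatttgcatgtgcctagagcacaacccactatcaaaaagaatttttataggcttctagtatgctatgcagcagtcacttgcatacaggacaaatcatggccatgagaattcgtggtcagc
Gm35545: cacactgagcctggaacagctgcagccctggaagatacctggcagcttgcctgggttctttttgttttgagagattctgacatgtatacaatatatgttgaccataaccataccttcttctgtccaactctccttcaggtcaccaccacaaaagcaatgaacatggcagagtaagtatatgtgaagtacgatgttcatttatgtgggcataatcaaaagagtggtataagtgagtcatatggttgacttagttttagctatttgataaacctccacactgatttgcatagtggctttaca
Gm38573: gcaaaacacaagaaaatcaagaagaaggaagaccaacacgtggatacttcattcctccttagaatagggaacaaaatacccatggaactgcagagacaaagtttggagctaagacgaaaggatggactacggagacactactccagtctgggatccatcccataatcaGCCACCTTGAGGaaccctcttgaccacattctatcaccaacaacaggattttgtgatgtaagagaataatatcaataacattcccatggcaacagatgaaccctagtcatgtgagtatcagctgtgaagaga

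The motif was found in 1 of the 33 promoters inside the loci, that of Gm38573, where it reads on the opposite strand. Among all 32851 promoters of the same length 8.61% held it. The letters were not found in the windows of Rag2, Rag1, LOC108169192 and Gm35545, which says nothing about CTCF outside those windows.

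In control cells the 5 loci had different places in the timing programme. Tcra/Tcrd was the earliest and Tcrb the latest, with Igl, Igh and Igk between them. The mean score of Tcra/Tcrd was 0.32 in control profile 1 and 0.41 in control profile 2. That of Igl was -0.30 and -0.14, that of Igh -1.22 and -1.20, that of Igk -1.79 and -1.66, and that of Tcrb -2.63 and -2.61. No 2 neighbours in this order overlapped. Tcrb was late in 100% of its windows, Igk in 90.6% and Igh in 63.7%. Of all windows in the genome, 13.2% were later than the mean of Tcrb, 27.9% later than that of Igk, 35.9% later than that of Igh, 49.4% later than that of Igl and 56.8% later than that of Tcra/Tcrd.

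With auxin the mean of Igh was -1.43 and -1.59, below both controls, a difference of -0.31. The mean of Igl was 0.35 and 0.39, above both controls, a difference of 0.59. Igl then lay beside Tcra/Tcrd, which was at 0.34 and 0.27. Those of Igk (-1.76 and -1.86) and Tcra/Tcrd overlapped those of the controls, with differences of -0.08 and -0.06. Tcrb was at -2.70 and -2.77, a small difference of -0.12 that did not overlap. The two-sided exact permutation test gave p = 0.333 for Igh, Igl and Tcrb, which is the smallest p that 2 against 2 profiles allow, and 0.667 for the other two. Adjusted over the 5 loci these exact permutation p-values were 0.556 and 0.667. The locus differences at Igh and Igl are larger than the spread between replicates but cannot pass a 0.05 threshold. That at Tcrb was -0.02, with an exact permutation p of 1, when medians over windows replaced means.

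**Figure D1:**
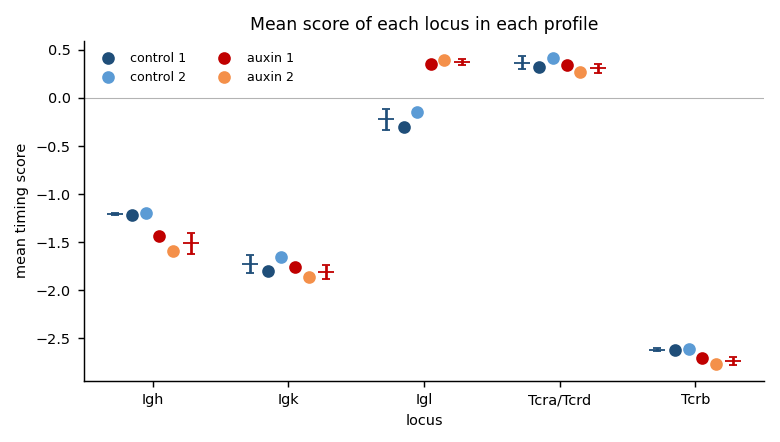
Mean timing score of each locus (vertical axis, score units, higher is earlier) in each of the 4 profiles. Points are profiles, and dashes with bars are group means ± SD (n = 2). Both auxin points lie below the controls at Igh and above them at Igl, and the groups overlap at Igk and Tcra/Tcrd.

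To find where within the loci timing differed, scores were averaged in bins of 50 kb and tested with limma over all 42694 bins of the genome that had at least 3 windows. The loci covered 160 bins, of which 127 were tested. At a Benjamini-Hochberg adjusted p under 0.05, 5 of the 127 passed, all in Igh and all later with auxin, and none was earlier. Across the genome 1.85% of bins passed, 1.13% later and 0.719% earlier. The other 4 loci had no bin past the test. At an unadjusted p under 0.05, 29 of the 127 passed, against 21.8% of all bins, and the 2 groups did not overlap in 72 of the 127 (56.7%), 47 of them later and 25 earlier, against 52.5% of all bins (26.1% later, 26.4% earlier). Apart from the cluster in Igh, the loci as a whole were near the genome's background. The median difference of the 127 bins was -0.11 against 0.01 for all bins, and the median absolute difference was 0.311 against 0.273.

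**Figure D2:**
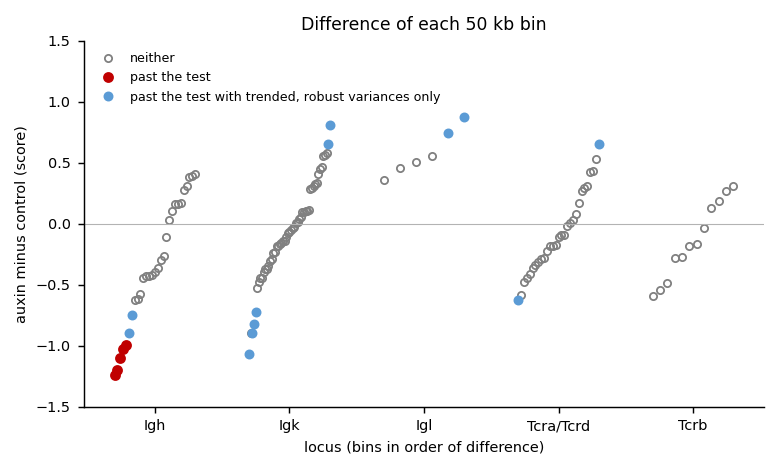
Difference in timing score, auxin minus control (vertical axis), of the 127 tested bins of 50 kb, sorted within each locus. Filled red points passed limma's test at an adjusted p under 0.05 and blue points passed only when variances were trended and robust. The red points are all in Igh and below -0.9, while all 6 bins of Igl lie above 0.

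Igh spans 2800 kb from the window at 113208000. Its 8 constant-region genes, which encode the classes of antibody heavy chain, lie at the low-coordinate end, followed by the J and D segments and then by 119 V segments toward the end of the chromosome. In control cells the score fell steeply across the constant genes, from 1.79 ± 0.18 (SD, n = 2) at Igha (the IgA class) through 0.64 ± 0.33 at Ighg1 to -0.92 ± 0.21 at Ighm (the IgM class, first to be made). It stayed low over the V segments next to the D segments, rose above 0 in an early island among V segments further on, and fell again over the distal V segments.

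The 5 bins past the test lay over this island and, at 114200001, over its falling distal edge, where control scores were already below 0. The 300 kb that they span, from 113950001 to 114250000, are called the island from here on. In the bin at 113950001, which holds the V segments Ighv3-1, Ighv11-1 and Ighv14-2, control scores of 0.38 and 0.64 stood against auxin scores of -0.67 and -0.37. The next bin, at 114000001 with Ighv11-2, had 0.63 and 0.75 against -0.30 and -0.72. At 114050001, with Ighv14-3, Ighv16-1 and Ighv9-1, it was 0.85 and 0.89 against -0.19 and -0.28. All 3 went from above 0 to below 0 in both auxin profiles. The bin at 114150001, which holds Ighv14-4 and Ighv3-3, had the largest decrease in any locus, from 0.41 and 0.63 to -0.58 and -0.87. At 114200001, with Ighv7-4, scores were -0.06 and -0.32 against -1.11 and -1.27. The differences were -1.03, -1.20, -1.10, -1.24 and -0.999 in that order, with adjusted p-values from limma of 0.049, 0.041, 0.041, 0.039 and 0.049. The bin between them, at 114100001 with Ighv9-2 and Ighv9-3, had 0.75 and 1.28 against 0.21 and 0.02, a difference of -0.90 that did not pass (limma, adjusted p = 0.074).

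These calls lie close to the threshold, and neighbouring bins share smoothed signal, so they are not 5 separate findings. Without control profile 1, 3 bins of the loci passed (0.789% of all bins). Without control profile 2 none did (0.126% of all bins), and without auxin profile 1 or auxin profile 2 no bin of the genome passed. When bins with fewer than 3 windows entered the fit none passed, and when windows at a bin's edge were put in the bin on their right 3 passed, with 0.00208% and 1.66% of all bins past the test. Trended and robust variances called 17 bins of the loci, 12 later and 5 earlier, 7 of them in Igh, against 10.9% of all bins (5.71% later, 5.19% earlier). In bins of 100 kb 2 passed (1.84% of all) and among single windows 14 of 840 did (0.999% of all). Over the 300 kb from 113950001 to 114250000 (37 windows) the difference was -1.08, and between -1.18 and -0.98 with any 1 profile left out. These 300 kb were delimited by the bins called with all 4 profiles, so their size and its range are a description and no sign of stability.

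Across those 300 kb the score was 0.53 and 0.73 in control profiles and -0.37 and -0.52 in auxin profiles. Of the 37 windows 34 and 33 were above 0 in the controls, and 8 and 6 with auxin. The highest window was 1.03 and 1.36 in controls and 0.31 and 0.20 with auxin. Lower scores reached beyond the 300 kb: in 11 bins in a row, 550 kb from 113850001 to 114400000, both auxin profiles were below both controls, with means of -0.35 and -0.20 against -1.02 and -1.13 (difference -0.80). Outside the 5 called bins none of these passed the test. Both auxin profiles were below both controls in 26.1% of all tested bins, and neighbouring bins share smoothed signal. Farther out, 150 to 400 kb from either edge of the 300 kb, the groups overlapped. On the constant-region side that stretch was at -2.69 and -3.18 in controls and -2.53 and -3.05 with auxin, and on the distal side at -3.22 and -3.19 against -2.57 and -3.35. The island stood 3.45 and 3.92 above these stretches in controls and 2.18 and 2.66 with auxin. The borders of these stretches were set after the scores were seen, and the values are given without a test.

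**Figure D3:**
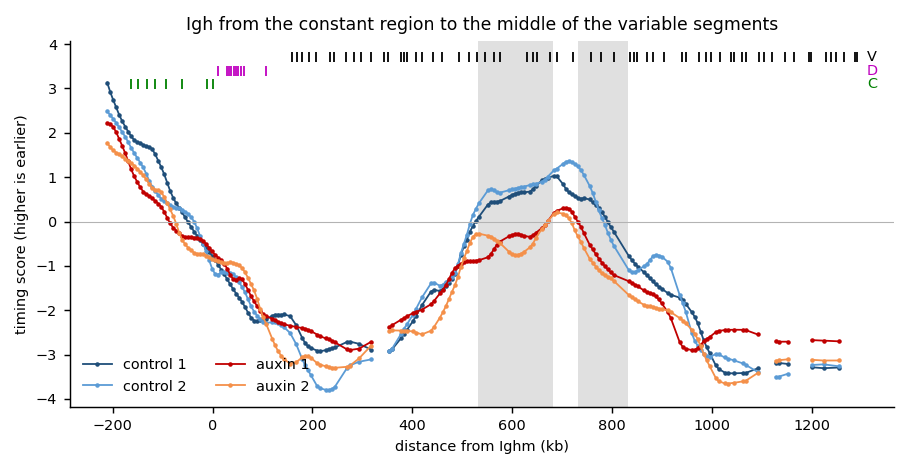
Timing score (vertical axis, higher is earlier) against distance from Ighm in kb in the 4 profiles, with a point per window. Ticks at the top mark constant genes (C), D segments and V segments, and grey bands mark the 5 bins past limma's test. The controls rise above 0 over most of the grey bands while the auxin profiles stay mostly below 0. In the low stretches on both sides the groups overlap, and on the distal side the auxin profiles lie apart from each other (-2.57 and -3.35).

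The island holds 12 V segments of the families Ighv3, Ighv7, Ighv9, Ighv11, Ighv14 and Ighv16 and 7 V pseudogenes. Since these segments were taken from the called stretch, their differences restate it. They ran from -1.33 at Ighv14-4 to -0.88 at Ighv9-2. At Ighv9-2 the controls were at 1.02 and 1.19 and the auxin profiles at 0.24 and 0.20. At Ighv14-4 they were at 0.50 and 0.80 against -0.53 and -0.84. Of the 119 V segments of Igh, 71 had a window within 6 kb, and 10 of those were early in controls and 0 with auxin. Segments of a family are similar in sequence, and reads from them may have been placed at the wrong segment or dropped.

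The V families were also averaged whole. The 17 scored segments of Ighv2 and Ighv5, nearest to the D segments, averaged -2.61 ± 0.20 in controls and -2.60 ± 0.34 with auxin. The 23 scored segments of Ighv1 and Ighv8, which make up most of the distal part, averaged -3.10 ± 0.22 and -3.02 ± 0.12. Only 23 of the 68 segments of these 2 families had a window, so most of the distal part was not measured. The 31 scored segments of the other families, which include the island, went from -0.94 and -0.84 to -1.39 and -1.58.

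The constant-region end of Igh was also lower with auxin. Over the 4 bins from 113200001 to 113400000 the score was 1.24 and 0.94 in controls and 0.58 and 0.58 with auxin. The difference was -0.51, with no bin past the test. The stretch was delimited by both auxin profiles lying below both controls, as they did in 26.1% of all tested bins. Neighbouring bins share smoothed signal. Igha went from 1.92 and 1.66 to 1.18 and 1.31. Ighg3 (an IgG class) went from 0.21 and 0.27 to -0.32 and -0.42, crossing 0. Ighm and Ighd (the IgD class), next to the J segments, had values that overlapped, -0.77 and -1.06 against -0.67 and -0.84 at Ighm and -0.68 and -0.87 against -0.59 and -0.80 at Ighd. The drop from Igha to Ighm was thus 2.69 and 2.72 in controls and 1.85 and 2.16 with auxin. The 500 kb beyond the constant genes, outside the locus, were lower too, at 3.33 and 3.18 against 2.55 and 2.68.

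The 10 D segments of Igh had small positive differences, averaging -1.58 and -1.38 in controls and -1.29 and -1.11 with auxin. Adam6b and Adam6a, sperm protein genes, lie on either side of Ighd3-1, the D segment nearest to the V segments, and had differences of 0.50 and -0.32. The tested bin with the largest increase, at 113750001 among Ighv5 and Ighv2 segments, rested on 3 windows. It had -2.81 and -2.78 against -2.31 and -2.46 (difference 0.41, limma adjusted p = 0.28). The earliest tested bin in controls was at 113200001 (2.34 ± 0.26, against 1.71 ± 0.23 with auxin). The latest tested bin was at 115800001 among Ighv1 and Ighv8 segments (-3.32 ± 0.35 against -3.59 ± 0.15).

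Igl is the smallest locus, 300 kb from the window at 19002000, with 3 V, 3 J and 3 constant segments in the annotation. The difference ran in the same direction along the whole locus: all 6 bins had higher scores in both auxin profiles than in either control, with differences from 0.36 to 0.87. Such a separation was found in 26.4% of all tested bins. The 6 bins are adjacent and share smoothed signal, so they are not 6 separate findings. The bin at 19150001, which holds the constant gene Iglc2, had the largest difference, from -0.80 and -0.69 to 0.05 and 0.20 (0.87 ± 0.21 SE, limma adjusted p = 0.059). The next largest, at 19250001 with Iglv2 and the olfactory receptor gene Olfr164, went from -1.66 and -1.26 to -0.95 and -0.47 (0.75, adjusted p = 0.12). Neither passed the test. Both passed when limma's variances were trended and robust, as did 5.19% of all bins in that direction.

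The gradient along Igl was kept. In controls the score fell from 1.17 and 1.29 in the earliest bin, at 19000001, to that of the latest, at 19250001, and with auxin it fell from 1.71 and 1.67. The smallest difference, 0.36, was in the bin at 19050001 with Iglc1, Iglc3 and Iglv1, where controls were at 0.65 and 0.82 and auxin profiles at 1.09 and 1.09. Iglv2 and Iglv3, the V segments farthest from Iglc1, went from -1.62 and -1.24 to -0.79 and -0.49 and from -1.21 and -1.16 to -0.48 and -0.57. Late windows made up 53.2% of the locus in controls and 21.3% with auxin. The 500 kb on the Iglv2 side were higher with auxin as well, at -1.81 and -1.73 against -1.18 and -1.35. On the Iglc1 side it was at 2.75 and 2.73 in controls and 2.97 and 2.84 with auxin. The locus minus both flanks was -0.74 and -0.61 in controls and -0.52 and -0.32 with auxin (two-sided exact permutation p = 0.333).

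**Figure D4:**
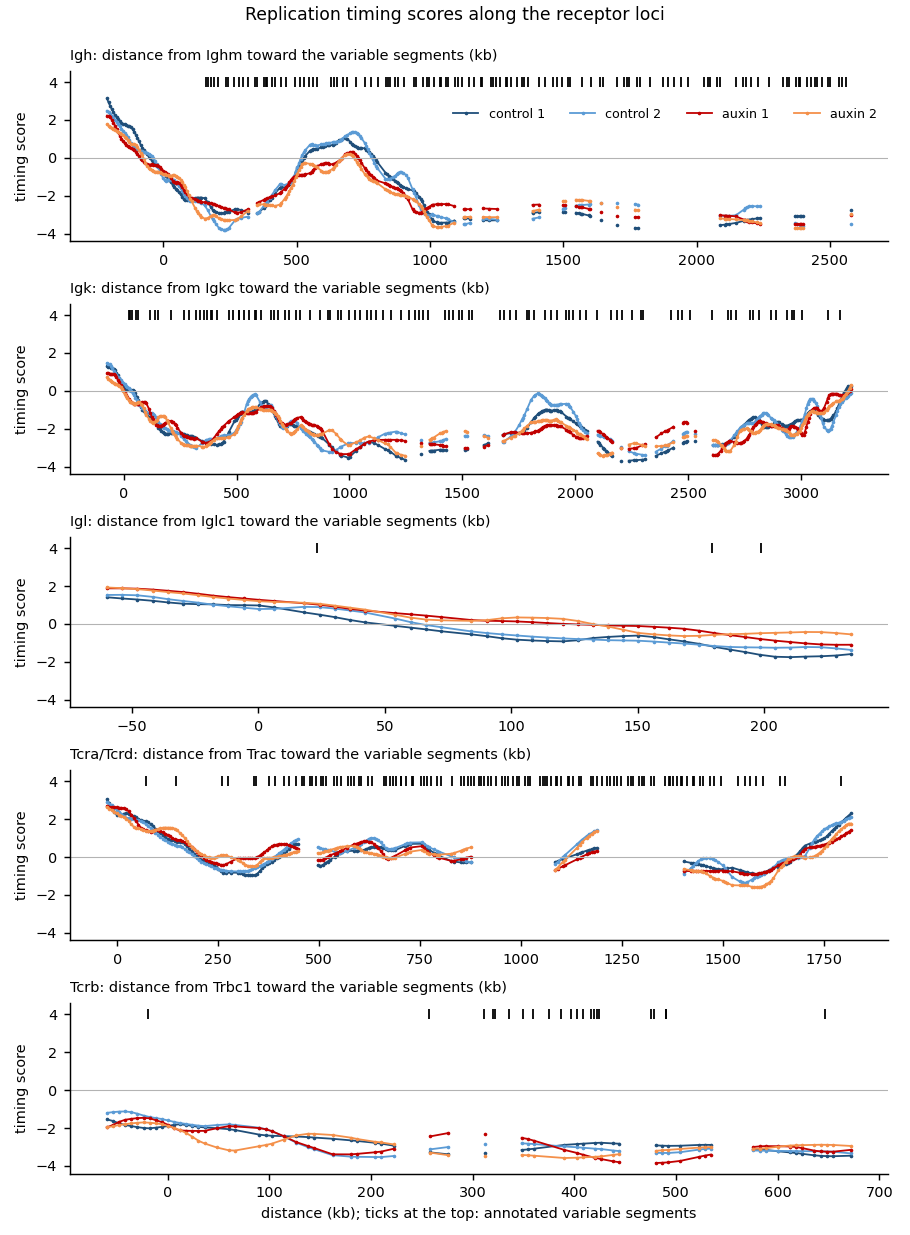
Timing score (vertical axis) along each locus in the 4 profiles, against the distance in kb from a constant gene toward the V segments, with lines broken at gaps over 30 kb. Ticks at the top of each panel are annotated V segments. The Igh island, the higher scores along all of Igl and the uniformly low Tcrb profile can be seen, as can the gaps over the distal Igh and the central Tcra/Tcrd V segments.

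Igk covers 3300 kb from the window at 67506000, with 102 V segments and a single constant gene, Igkc, at the high-coordinate end. It was late over nearly all of its length. None of the 74 V segments with a window was early in either group. The largest decrease, -1.07 ± 0.28 (SE), was in the bin at 68850001, which holds Igkv1-88 and the uncharacterised gene LOC108169192 whose promoter is printed above. Its scores were -1.09 and -0.28 in controls and -1.95 and -1.56 with auxin (limma, adjusted p = 0.073). It was the deepest of 6 adjacent bins from 68650001 to 68950000 in which both auxin profiles were below both controls, as they were in 26.1% of all tested bins. The means over these 6 bins were -1.38 and -0.87 against -2.09 and -1.81. The controls differed from each other by more there than at Igh, and without control profile 2 the difference in the bin at 68850001 was -0.67.

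The largest increase in Igk was at the far end from Igkc, in the bin at 67550001 with Igkv2-137, from -1.05 and -1.33 to -0.17 and -0.60 (0.81 ± 0.23 SE, limma adjusted p = 0.091). At the other end, the 3 bins from 70650001 with Igkv3-1, the J segments, Igkc and the metabolic gene Rpia were lower with auxin. Their means were 0.44 and 0.44 against 0.09 and -0.05. In all 3 both auxin profiles were below both controls, as they were in 26.1% of all tested bins, and neighbouring bins share smoothed signal. Igkc itself was at 0.22 and 0.41 in controls and 0.03 and -0.001 with auxin. The bin of Rpia, at 70750001, was the earliest of the locus in controls (1.15 and 1.16, against 0.84 and 0.50 with auxin). The latest tested bin, at 68450001, was at -3.66 and -3.26 in controls and -3.03 and -2.78 with auxin (difference 0.56, limma adjusted p = 0.19). Decreases in some parts of Igk thus stood beside increases in others, none of them past the test, and the locus mean showed neither. With trended and robust variances 4 later and 2 earlier bins of Igk passed, 11.8% of its 51 tested bins, near the 10.9% of all bins (5.71% later, 5.19% earlier).

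Tcra/Tcrd covers 1850 kb from the window at 52404000 and interleaves the delta segments with the alpha segments, with the constant genes Trdc and Trac at the high-coordinate end. That end was early in both groups. Trac (alpha constant) was at 2.24 and 2.50 in controls and 2.62 and 2.30 with auxin, and all 53 J segments were early in both. Its neighbour Dad1, a broadly expressed subunit of the oligosaccharyltransferase, was at 3.04 and 2.89 against 2.69 and 2.62. Trdc (delta constant) was at 1.83 and 1.64 against 1.35 and 1.36, lower in both auxin profiles.

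The delta V segments differed in the other direction. Trdv1 went from -0.96 and -0.60 to -0.06 and -0.48, and Trdv2-1 from -0.83 and -0.71 to -0.39 and 0.10. The bin with the largest increase, at 53900001, holds Trdv2-1 and Trav22 and went from -0.87 and -0.75 to -0.09 and -0.22 (0.66 ± 0.21 SE, limma adjusted p = 0.11). It lay in 5 adjacent bins from 53850001 to 54100000 that were all higher with auxin, with means of -0.21 and -0.22 against 0.19 and 0.28. In all 5 both auxin profiles were above both controls, as they were in 26.4% of all tested bins. Trdv5, which lies beyond Trdc, was lower, with a difference of -0.42. The 61 scored alpha V segments averaged 0.00 and 0.20 in controls and -0.02 and -0.03 with auxin.

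At the far V end of Tcra/Tcrd the bin at 52450001, which holds the olfactory receptor genes Olfr1509, Olfr1508 and Olfr1507, had the largest decrease, from 0.99 and 1.30 to 0.65 and 0.39 (-0.62 ± 0.22 SE, limma adjusted p = 0.15). The earliest bin, at 54200001 with Trac, was at 2.48 and 2.55 in controls and 2.63 and 2.36 with auxin, and the latest, at 52650001, at -0.70 and -1.27 against -0.84 and -1.49. With the locus divided into 3 equal parts, the part at the constant end minus the part at the V end was 0.40 and 0.44 in controls and 0.89 and 1.08 with auxin. The difference was 0.56, with the constant part higher (0.49 and 0.55 against 0.75 and 0.70) and the V part lower (0.09 and 0.11 against -0.15 and -0.38). The groups did not overlap (two-sided exact permutation p = 0.333, the smallest possible, and 0.889 adjusted over 4 loci). At Igh the same contrast was 2.77 and 2.31 against 2.42 and 2.30, at Igk 0.39 and 0.38 against 0.41 and 0.36, and at Tcrb 1.05 and 1.27 against 1.20 and 0.74, and at these 3 loci the groups overlapped. The constant part of Igh (121 windows) also took in its D segments, many V segments and part of the island, and its V part rested on 21 windows. That of Tcra/Tcrd also took in alpha and delta V segments, among them the 5 bins from 53850001 to 54100000 that were higher with auxin. The bins holding the D, J and constant genes, at 54100001, 54150001 and 54200001, had differences of 0.005, -0.22 and -0.02. The higher score of this part was thus not one of the constant genes.

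Tcrb, 750 kb from the window at 40866000, was late throughout in both groups. Its constant genes Trbc1 (-1.89 and -1.60 against -1.83 and -1.89) and Trbc2 (-1.98 and -1.47 against -1.58 and -1.75) were the less late end, and the 18 scored V segments averaged -2.92 and -3.00 in controls and -3.19 and -3.29 with auxin. The locus also holds trypsinogen genes, which encode digestive enzymes of the pancreas. The bin of 1 of these, Prss1, at 41450001, had the largest decrease, -0.59, but it came from auxin profile 2 alone: the scores were -2.06 and -1.83 in controls and -1.94 and -3.13 with auxin, and the difference without auxin profile 2 was -0.00. The largest increase among tested bins, 0.31, was in the bin at 40850001 with Trbv1, which was also the latest bin. Its scores were -3.47 and -3.26 in controls and -3.22 and -2.90 with auxin (limma, adjusted p = 0.45). The earliest, at 41550001 with Trbv31, was at -1.83 and -1.22 against -1.62 and -1.80.

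Each locus was also set against the 500 kb on both of its sides. Igh, though lower with auxin, stood higher relative to its flanks (-2.40 and -2.37 against -2.05 and -2.28), since the flanks differed by -0.52. Tcrb stood lower (-0.61 and -0.62 against -0.79 and -1.004), with flanks that were 0.17 higher. Neither pair of groups overlapped (two-sided exact permutation p = 0.333, and 0.556 adjusted over 5 loci). At Igk and Tcra/Tcrd the groups overlapped. The direction at Igh and Tcrb turned when medians over windows replaced means (-0.12 and 0.02).

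The genes whose products recombine the loci, pair with the receptors or control lymphocyte development were examined as 40 genes in 3 groups, with a score averaged over each gene and 10 kb on either side. None of the 40 passed limma's test over 19100 protein-coding genes, and 0% of those genes did. The smallest adjusted p among the 40 was 0.11. At an unadjusted p under 0.05, 7 of the 40 passed, 6 later and 1 earlier, against 19.5% of all genes. The 2 groups of profiles did not overlap for 21 of the 40, against 52.0% of all genes. Most of the genes are early in these cells, 30 of 40 in controls, including all 11 receptor partners.

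The largest differences were at Rag1 and Rag2, neighbours 5724 bp apart on chromosome 2 that encode the enzyme cutting at recombination signals. Rag1 was at -0.06 and 0.21 in controls and -1.03 and -0.81 with auxin, and Rag2 at -0.15 and 0.17 against -1.17 and -1.01. The differences were -0.995 ± 0.209 (SE) and -1.10 ± 0.21, each with an adjusted p of 0.11 by limma. They share 2 windows and count as 1 observation. Both auxin profiles were about 1 score unit later than both controls. In the fit of 50 kb bins the bin at 101600001, which holds both genes, passed the test, at -0.17 and 0.12 against -1.14 and -1.04 (difference -1.06, limma adjusted p = 0.045). All 10 bins from 101400001 to 101900000 were lower in both auxin profiles, with differences from -1.06 to -0.57, so lower scores extended well beyond the 2 genes. The bin at 101600001 was the only 1 of the 10 past the test. Both auxin profiles were below both controls in 26.1% of all tested bins, and neighbouring bins share smoothed signal.

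Among the other 15 genes of V(D)J recombination, Hmgb2, a DNA-bending cofactor of RAG, went from 0.80 and 1.07 to 0.31 and -0.02 (-0.79, limma adjusted p = 0.13). It is named after its value was seen, because with trended and robust variances it and the RAG genes were the 3 of 40 that passed, all later, under a setting in which 8.53% of all genes passed (5.34% later). At an unadjusted p under 0.05, 5 of the 17 passed, all later, against 19.5% of all genes in either direction. Of the 17 genes of this group 11 were lower and 6 higher with auxin. The 2 groups of profiles did not overlap for 13 of the 17, against 52.0% of all genes. Rag1 and Rag2, which count as 1 observation, are counted as 2 in these 5, in these 11 and in these 13.

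Of the 11 receptor partners 10 were higher and 1 lower, while 49.2% of all genes were higher. The groups did not overlap for 2 of the 11, against 52.0% of all genes. Several are neighbours (Cd3e, Cd3d and Cd3g, and Vpreb1 and Igll1), so they are not separate observations. The 2 largest differences were at Cd247, the CD3 zeta chain (1.93 and 1.80 against 1.36 and 1.32, -0.52, limma adjusted p = 0.20), and Igll1, the lambda5 part of the surrogate light chain (3.39 and 3.00 against 4.04 and 3.34, 0.49, adjusted p = 0.37), where the groups overlapped. Of the 12 lymphoid transcription factors 6 were higher and 6 lower, and the groups of profiles did not overlap for 6 of the 12. The largest differences were at Tcf3, which encodes the E2A proteins that bind receptor enhancers (3.06 and 3.50 against 3.92 and 4.15, 0.75, limma adjusted p = 0.15), and Ikzf1, which encodes Ikaros (1.10 and 1.19 against 0.70 and 0.74, -0.42, adjusted p = 0.27). None of these passed the test.

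**Figure D5:**
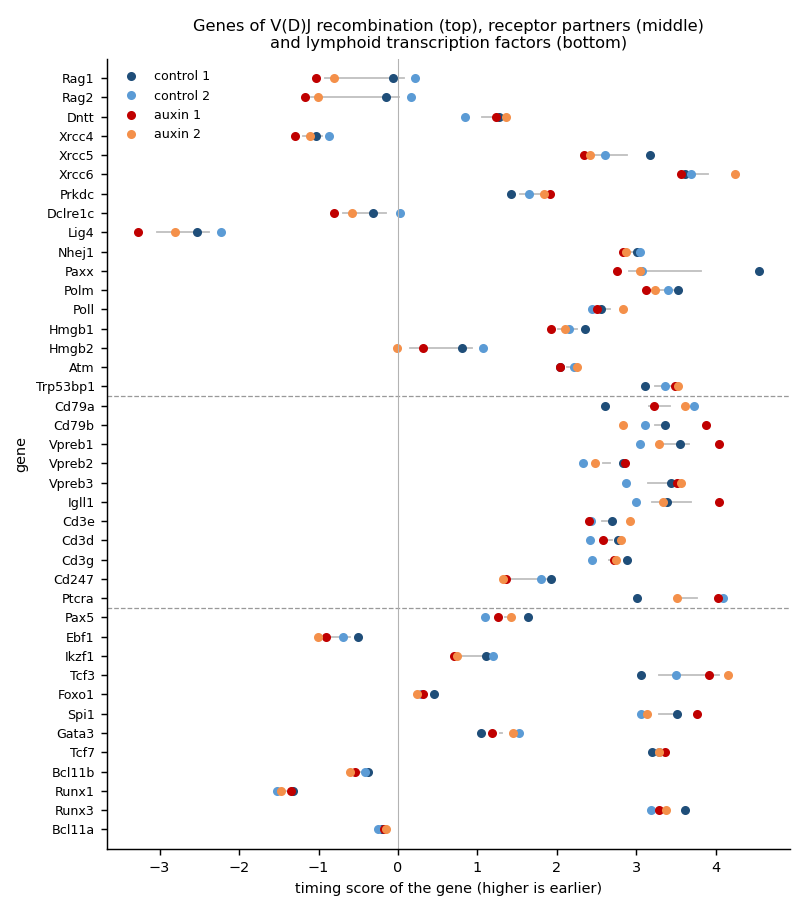
Timing score (horizontal axis, higher is earlier) of the 40 genes in the 4 profiles, with grey lines joining the group means. Dashed lines separate the 3 groups. Rag1 and Rag2 at the top show both auxin profiles to the left of both controls, and the receptor partners cluster at early scores.

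The authors' deposited tables list 63 regions that went from early to late and 22 that went from late to early. None of them overlapped any of the 5 loci or lay within 1 Mb of one, and none covered Rag1 or Rag2. Every region in the authors' deposited tables had a difference between groups of at least 1.04 by the authors' own measure.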

How the data were processed

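Replication timing was measured by Repli-seq, sequencing of BrdU-labelled DNA from sorted early and late S phase cells, in 8 libraries that form 4 profiles. The authors deposited a quantile normalised timing score for windows 6 kb apart on mm10. The submitters' processing notes name Bowtie2, SAMtools and bedtools, and the versions, the smoothing and the filters were not given in the sources used here. The lists of changed regions were deposited by the authors with their own p-values and q-values and are only counted here. Their score columns hold the same profiles.

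From the deposited scores, means were computed over each locus, over bins of 50 kb with at least 3 windows, and over protein-coding genes with 10 kb on each side. Bins and genes were tested with limma 3.58.1 in R 4.3.3 (lmFit and eBayes, with treatment alone in the model, leaving 2 degrees of freedom before moderation) over the whole genome, with Benjamini-Hochberg adjustment and a threshold of 0.05. Single values used two-sided exact permutation tests over the 4 profiles. Constant and V ends are the outer 2 of 3 equal parts of a locus. Gene positions and segments come from RefSeq, GRCm38.p6. The code was run on simulated bins with known added shifts, with independent noise drawn from limma's own moderated spread. A first version, with noise from the raw spreads of 2 replicates, recovered no changed bins. The simulation therefore does not say how often real changes would be found in these smoothed scores.

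Named in each locus, among its tested bins, were those of largest increase and decrease, of earliest and latest control mean, and every bin past the test. From the gene list, Rag1, Rag2, the 2 largest differences per group and any member past the test were named. The members and lists were chosen with earlier results of these data known. The labels do not say whether replicate numbers pair the profiles. Deviations of control and auxin profiles from their group means correlated at 0.036 across bins, which cannot settle it. Alternatives covered the variances, bin size and placement, medians, the window minimum, a replicate block and each profile left out.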

Additional observations from a re-analysis of the deposited data

How the results depend on the processing

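The count of bins past the test in the 5 loci, 5 in the report, was 17 with trended and robust variances (12 later, 5 earlier). It was 14 when single windows were tested, 2 with 100 kb bins and 3 with medians over windows (0.942% of all bins). When bins with fewer than 3 windows were included it was 0. With the replicate number as a block it was 8 (3.73% of all bins), though the labels do not say whether the numbers pair the profiles. Of the alternatives added after seeing the data, bins shifted by 25 kb gave 5 (1.88% of all bins) and edge windows put in the bin on their right gave 3. With 1 profile left out it ranged from 0 to 3, and the share of all bins past the test from 0% to 0.789%. The count of the 40 genes past the test, 0 in the report, was 3 with trended and robust variances (8.53% of all genes). With the replicate block it was 0. The causes were not tested.

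Locus mean differences kept their direction under every alternative run, but some alternatives could not move them. The replicate block leaves the mean difference unchanged, and no window of Igh or Igl was dropped as extreme. Taken by replicate number, the differences were 0.035 and -0.201 at Igk and 0.023 and -0.142 at Tcra/Tcrd, while at Igh, Igl and Tcrb both kept the sign of the mean. With a profile left out the locus mean differences ranged from -0.384 to -0.228 for Igh, 0.515 to 0.672 for Igl, -0.151 to -0.015 for Igk, -0.108 to -0.011 for Tcra/Tcrd and -0.149 to -0.087 for Tcrb. With medians Igl was 0.806 and Tcrb -0.024 (exact permutation p = 1). Several contrasts turned. The constant end minus the V end turned to 0.063 at Igh with the outer 2 of 4 equal parts in place of 3, which leave out the island. With a profile left out it ranged from -0.404 to 0.049 there. At Igk it was 0.347 with medians, 0.033 without extreme windows, and from -0.024 to 0.024 with a profile left out, and at Tcrb from -0.421 to 0.045. Locus minus flanks turned with medians to -0.123 at Igh, 0.024 at Tcrb and -0.170 at Tcra/Tcrd. At Tcra/Tcrd it was also -0.026 without extreme windows, -0.071 with flanks of 1 Mb, and from -0.060 to 0.126 with a profile left out. At Igk it was -0.051 with flanks of 1 Mb and from -0.013 to 0.176 with a profile left out. Depth is unknown, and 2 profiles per group limit every test.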
